A study of Mus musculus with 7 samples.

Results

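Laminin chains and nidogens are the secreted proteins around which a basement membrane is built, and their mRNAs were examined in progenitor-derived cells sorted from the embryonic mouse neocortex. The members were 8 laminin chain genes, those outside the anchoring laminin of skin that have a row in the count table (*Lama1*, *Lama2*, *Lama4*, *Lama5*, *Lamb1*, *Lamb2*, *Lamc1* and *Lamc3*) and the 2 nidogen genes (*Nid1* and *Nid2*), taken by Ensembl identifier. These are 10 of the 38124 genes in the table. The rule that picks them uses no measured value, but the members were chosen with earlier results of these data known. All 7 libraries came from neocortex of heterozygous *Tis21*-CreERT2 embryos whose mothers had received tamoxifen, so the allele and the tamoxifen were shared by both groups. *Tis21*-driven Cre acts in neurogenic progenitors and their progeny, where it excises a floxed GFP cassette of the electroporated construct so that nuclear RFP is made. The 3 control libraries carried a construct without Sox9 and the 4 libraries labelled Sox9 carried the conditional Sox9 construct. Both were electroporated in utero at E13.5, and cells with high RFP were sorted at E15.5, after 48 hr. The methods state that cortices of several embryos from several mothers were pooled for a sort. The labels do not say how the libraries of a group relate to litters, so p-values measure only the spread between these libraries.

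Each laminin is a cross-shaped trimer of an α, a β and a γ chain, named by the numbers of its chains (α4β1γ1 holds α4, β1 and γ1). The trimer is put together inside the cell before it is secreted. The end of the α chain binds integrins and glycosylated dystroglycan on cells, while the short arms join laminins into a sheet. Nidogens bridge the γ1 chain to collagen IV and perlecan. In the developing neocortex laminins lie in the pial basement membrane, where radial glial endfeet attach, around blood vessels, and also at the ventricular surface.

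Total counts ran from 4429704 to 12907778, and TMM factors, which correct for differences in composition, lay between 0.893 and 0.941 in the controls and between 1.01 and 1.10 in the libraries labelled Sox9. The mRNA of *Sox9* itself was not higher under the Sox9 label. Its level was 34.6, 89.2 and 68.0 CPM (counts scaled to library size with TMM factors) in the controls and 50.8, 41.1, 31.0 and 37.1 in the libraries labelled Sox9, a log2 fold change of -0.68 ± 0.25 (SE; adjusted p = 0.0493). The groups overlapped, and the group names below refer to the labels. At an adjusted p under 0.01, 1862 of the 16522 genes tested (11.3%) had higher levels under the Sox9 label and 567 (3.43%) had lower levels. The calls followed the level of the gene: 20.6% of the 3275 genes with an average log2 CPM under 1 and 22.8% of the 4309 with 1 to 3 were called higher, but 3.24% of the 5770 genes with 3 to 6. The median log2 fold changes in these ranges were 1.55, 0.62 and -0.14. Of the 10 members, 2 lay under 1, 6 in the range of 1 to 3, and 2 in the range of 3 to 6.

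*Nid1* and *Lama4* were higher in the libraries labelled Sox9, no member was called lower, and *Lamb1* and *Lamc1*, the most abundant β and γ chains, were not called in either direction. So 2 of 10 members were called higher, beside 11.3% of all genes tested. Among all genes with an average log2 CPM under 3, where 8 of the members lay, 20.6% to 22.8% were called higher. DESeq2 called 3 members higher, beside 11.5% of its genes, and cyclic loess called none, beside 2.04%. At an adjusted p under 0.05, 5 members were higher in edgeR, beside 21.9% of all genes. The median log2 fold change was 1.04 over the members and -0.0031 over all genes, but 8 of the 10 members lay in the ranges of level where the median over all genes was 0.62 or 1.55. For 4 members (*Lama2*, *Lama4*, *Lama5* and *Nid1*) every library labelled Sox9 lay above every control library in CPM, as it did for 22.9% of all genes, and for no member did every one lie below, as for 16.4%. Since these are bulk libraries, fewer cells of a type and less RNA per cell cannot be told apart.

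**Figure D1:**
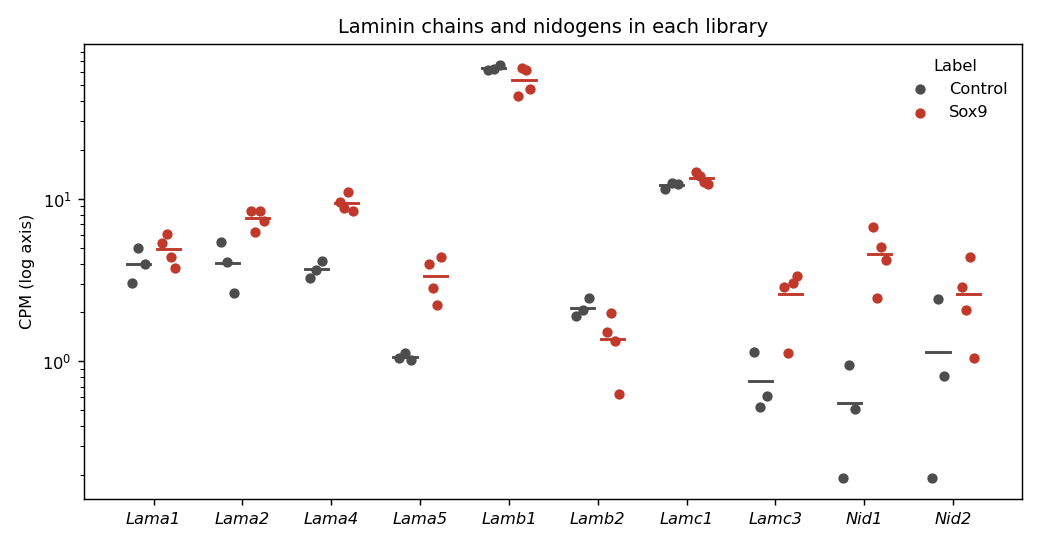
CPM of the 10 members in each library, on a log axis, with the 3 control libraries in grey and the 4 libraries labelled Sox9 in red; horizontal lines are group means. The red points lie wholly above the grey for *Lama2*, *Lama4*, *Lama5* and *Nid1*, whereas those of *Lamb1*, the highest member, and *Lamc1* overlap the controls.

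Of the α chains, which carry the sites for cell receptors, *Lama4* (GRCm38/mm10, chromosome 10, 38965515 to 39110188, plus strand) was the one called higher. It encodes the α4 chain, found in vessel walls and in peripheral nerve and muscle. It held 34, 42 and 41 counts in the controls and 70, 93, 99 and 40 in the libraries labelled Sox9, or 3.25, 3.65 and 4.17 CPM against 9.61, 8.79, 11.1 and 8.39 CPM. The lowest library labelled Sox9 lay clearly above the highest control, and edgeR gave a log2 fold change of 1.36 ± 0.27 (SE; 95% interval 0.79 to 1.93, adjusted p = 0.0025). The call was lost after cyclic loess normalization, which evens out differences that follow the level of a gene, here tested with limma-trend in place of edgeR (log2 fold change 1.11, adjusted p = 0.0125), and narrowly without control replicate 2 (adjusted p = 0.0101).

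*Lama5* (chromosome 2, 180176373 to 180225859, minus strand), for the widespread epithelial and vascular α5 chain, was at 1.05, 1.13 and 1.02 CPM in the controls and at 3.98, 2.84, 2.24 and 4.40 CPM in the libraries labelled Sox9. The controls were nearly equal, and the libraries labelled Sox9 all lay above them with a wide spread. The log2 fold change of 1.62 ± 0.42 (SE; 95% interval 0.72 to 2.52) narrowly missed the threshold (adjusted p = 0.0109), and DESeq2 called it (adjusted p = 0.0085). After cyclic loess it was 0.57 (adjusted p = 0.36).

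*Lama2* (chromosome 10, 26980036 to 27619758, minus strand) encodes the α2 chain, the main dystroglycan ligand of muscle and Schwann cells and a chain lost in congenital muscular dystrophy. It was at 5.45, 4.08 and 2.65 CPM in the controls and 8.38, 6.24, 8.38 and 7.34 CPM in the libraries labelled Sox9. The groups did not overlap, but the log2 fold change of 0.90 ± 0.31 (SE; 95% interval 0.24 to 1.55) did not pass (adjusted p = 0.0381). *Lama1*, for the α1 chain of early embryonic basement membranes and the meninges (chromosome 17, 67697259 to 67822647, plus strand), was at 3.06, 4.95 and 3.97 CPM in the controls and 5.36, 6.05, 4.36 and 3.78 CPM in the libraries labelled Sox9. Here the groups overlapped, with a log2 fold change of 0.30 ± 0.32 (SE; adjusted p = 0.503) that turned to -0.13 after cyclic loess.

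The β and γ chains held most of the laminin mRNA. *Lamb1* (chromosome 12, 31265234 to 31329644, plus strand), the common β1 chain, had 649, 726 and 658 counts in the controls and 314, 675, 558 and 227 in the libraries labelled Sox9. In CPM these were 62.0, 63.1 and 66.9 against 43.1, 63.8, 62.4 and 47.6. Replicates 2 and 3 labelled Sox9 lay among the controls, and replicates 1 and 4 lay below. *Lamb1* had a log2 fold change of -0.23 ± 0.15 (SE; 95% interval -0.56 to 0.09, adjusted p = 0.257). *Lamc1* (chromosome 1, 153218922 to 153332786, minus strand), for the γ1 chain found in most laminins, was at 11.6, 12.6 and 12.4 CPM in the controls and 14.6, 13.8, 12.7 and 12.4 CPM in the libraries labelled Sox9. Its groups overlapped through replicate 4 labelled Sox9. With a log2 fold change of 0.13 ± 0.20 (SE; 95% interval -0.28 to 0.55, adjusted p = 0.633), its interval excluded the increase fitted for *Lama4*.

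*Lamb2* (chromosome 9, 108479736 to 108490530, plus strand) encodes the β2 chain of synaptic and kidney laminins and was at 1.91, 2.09 and 2.44 CPM in the controls and 1.51, 1.98, 1.34 and 0.629 CPM in the libraries labelled Sox9. With a log2 fold change of -0.59 ± 0.44 (SE; 95% interval -1.52 to 0.34, adjusted p = 0.318) it was not called. The groups overlapped through replicate 2 labelled Sox9, and replicate 4, the shallowest library, had 3 counts. Cyclic loess with limma-trend gave -1.83 (adjusted p = 0.019). *Lamc3* (chromosome 2, 31887291 to 31946539, plus strand), for the γ3 chain, whose human gene is mutated in malformations of the occipital cortex, was at 1.15, 0.521 and 0.610 CPM in the controls and 2.88, 1.13, 3.02 and 3.36 CPM in the libraries labelled Sox9. Replicate 2 labelled Sox9 lay just below control replicate 1, and the other three lay above. The log2 fold change of 1.73 ± 0.52 (SE; 95% interval 0.62 to 2.84) did not pass (adjusted p = 0.0212), and it was 0.41 after cyclic loess.

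*Nid1* (chromosome 13, 13437551 to 13512269, plus strand), for nidogen 1 or entactin, showed the largest fold change of the members. It held 2, 11 and 5 counts in the controls and 49, 26, 45 and 20 in the libraries labelled Sox9, or 0.191, 0.956 and 0.509 CPM against 6.73, 2.46, 5.03 and 4.19 CPM. All 4 libraries labelled Sox9 lay above the controls, and the lowest of them was replicate 2. The increase on the log2 scale was 3.00 ± 0.54 (SE; 95% interval 1.85 to 4.15, adjusted p = 0.00155). It was called in each of the 7 fits that left out 1 library (log2 fold change from 2.59 to 3.67, the highest without control replicate 2, and adjusted p from 0.0017 to 0.00587), but cyclic loess lowered it to 1.86 (adjusted p = 0.0271).

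*Nid2* (chromosome 14, 19751265 to 19811787, plus strand), for the second nidogen, was at 0.191, 2.43 and 0.814 CPM in the controls and 2.88, 2.08, 4.36 and 1.05 CPM in the libraries labelled Sox9. Control replicate 2 lay among the libraries labelled Sox9, and the spread within each group was several-fold. The log2 fold change of 1.18 ± 0.64 (SE; 95% interval -0.18 to 2.54) was not called (adjusted p = 0.168), and it was 2.38 without control replicate 2. Exons of *Nid2* overlap those of *Rtraf* on the other strand over 437 bases, and *Rtraf* averaged 79.6 CPM in the controls and 61.9 CPM in the libraries labelled Sox9. The sources used here do not say whether counting used strand, so reads in that stretch cannot be assigned. Exons of *Lama2*, *Lamc3* and *Nid1* likewise overlap antisense genes, over 631, 382 and 143 bases.

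**Figure D2:**
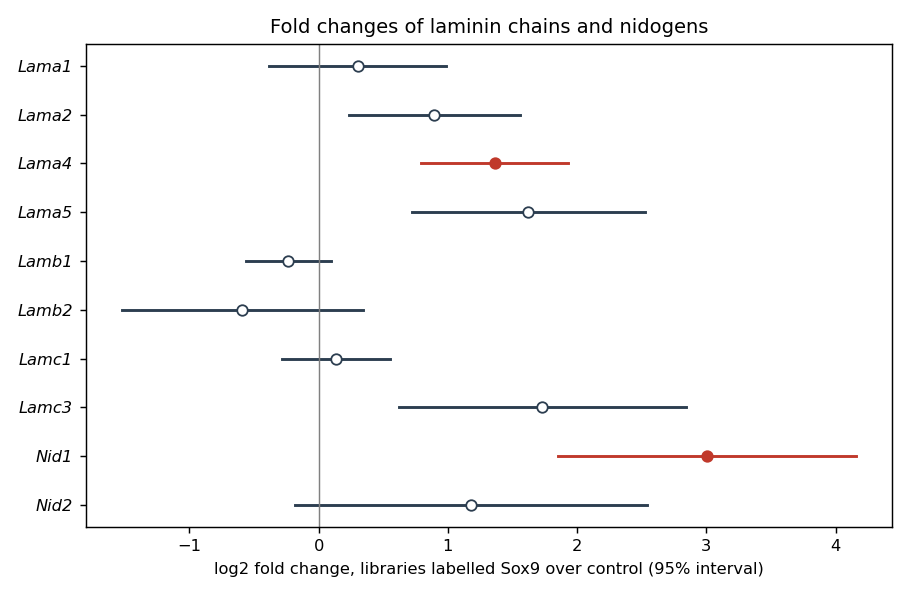
Log2 fold changes of the 10 members, with 95% intervals from edgeR; filled red points have an adjusted p under 0.01. Only *Lama4* and *Nid1* are filled, while the intervals of *Lama1*, *Lamb1*, *Lamb2*, *Lamc1* and *Nid2* cross 0.

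RefSeq promoter sequences (GRCm38.p6) were at hand for 5 of the 10 members (*Lama2*, *Lama5*, *Lamb1*, *Lamb2* and *Nid1*). They were searched on both strands for ACAAT, the core that SOX proteins bind, and for ACAAAG, 2 strings that share only their first 4 letters. Of 32851 promoters of 300 bases, 31% held ACAAT and 18.7% held ACAAAG. Among the 5, ACAAT occurred once, in *Lamb2*, and ACAAAG in none. The windows of *Nid1*, which was called higher, and *Lamb2*, which was not called, are shown 5′ to 3′, with the match (read as ATTGT on this strand) in capitals. They lie at chr13:13437352-13437651 and chr9:108479612-108479911, both on the plus strand.
Nid1: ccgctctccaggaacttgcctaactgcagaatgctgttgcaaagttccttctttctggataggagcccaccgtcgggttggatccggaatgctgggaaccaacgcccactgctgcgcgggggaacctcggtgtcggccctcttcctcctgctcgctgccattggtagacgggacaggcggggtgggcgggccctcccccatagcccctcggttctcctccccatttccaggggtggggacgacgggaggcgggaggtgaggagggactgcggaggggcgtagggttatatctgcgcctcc
Lamb2: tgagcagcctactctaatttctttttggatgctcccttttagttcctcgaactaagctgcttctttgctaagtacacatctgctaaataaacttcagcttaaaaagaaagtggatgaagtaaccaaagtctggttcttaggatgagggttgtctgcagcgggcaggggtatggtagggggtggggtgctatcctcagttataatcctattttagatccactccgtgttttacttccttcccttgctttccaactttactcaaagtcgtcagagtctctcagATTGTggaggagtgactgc
The *Nid1* window has no capitals, since neither string is in these 300 bases. It held 20 CpG dinucleotides and was 64.7% G and C, against 4 and 44% for *Lamb2*, with medians of 7 and 52.7% over all promoters. *Lama5* and *Lamb1* held 24 and 18 CpG dinucleotides and *Lama2* held 1 in their windows. A match or its absence describes these windows only.

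To compare the chains with each other, CPM were divided by the length of each gene's merged exons in kb. On this scale *Lamb1* was the highest member in both groups, at 6.46 CPM per kb in the controls and 5.47 in the libraries labelled Sox9. *Lamc1* came next at 1.47 and 1.62 CPM per kb. The α chains were all lower. In the controls *Lama1* (0.412), *Lama4* (0.306) and *Lama2* (0.248) followed with overlapping values, while under the Sox9 label the order was *Lama4* (0.784), *Lama1* (0.505), *Lama2* (0.464) and *Lama5* (0.295), with *Lama4* above the other α chains in every one of these libraries. The remaining members were likewise low, with *Lamb2* at 0.353 and 0.225, *Nid2* at 0.222 and 0.501, *Lamc3* at 0.125 and 0.427, and *Nid1*, the lowest member in the controls, at 0.0795 and 0.663 CPM per kb. With all 8 members below *Lamc1* ordered by their mean within a group (*Lama4*, *Nid1*, *Lama1*, *Nid2*, *Lama2*, *Lamc3*, *Lama5* and *Lamb2* in the libraries labelled Sox9), each overlapped the next in its library values. The 4 α chains together were at 1.06 ± 0.0892 CPM per kb in the controls (SD, n = 3) and at 2.05 ± 0.127 in the libraries labelled Sox9 (SD, n = 4), with no overlap between 1.01 to 1.16 in the controls and 1.92 to 2.21 in the libraries labelled Sox9. Both β chains together were at 6.81 ± 0.304 and 5.69 ± 1.10 CPM per kb (SD). The ratio of α to β chain mRNA was 15.4%, 17.4% and 14.1% in the controls and 48.1%, 29.4%, 31.9% and 39.2% in the libraries labelled Sox9. No overlap between groups was seen in this ratio, although β chain mRNA stayed in excess of α in every library. As single genes, 22.9% of all genes tested had every library labelled Sox9 above every control. The 4 α chains had an average log2 CPM of 1 to 3, where the median log2 fold change of all genes was 0.62. *Lamb1* lay in the range of 3 to 6, where that median was -0.14. The ratio was not compared with that of other genes at these levels.

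*Lama1* gave 38.6% ± 6.61 of α chain mRNA in the controls (SD, n = 3) and 24.6% ± 4.99 in the libraries labelled Sox9 (SD, n = 4), *Lama4* gave 29% ± 4.64 and 38.3% ± 3.94, and *Lama2* gave 23.5% ± 8.63 and 22.6% ± 2.36. *Lamb1* made up at least 94.4% of β chain mRNA in every library. The share of *Lamc3* in γ chain mRNA was 11.9%, 5.32% and 6.26% in the controls and 21.2%, 10%, 24.3% and 26.9% in the libraries labelled Sox9. Replicate 2 labelled Sox9 lay below that of control replicate 1. The 2 nidogens together were at 4.61%, 39.9% and 15.4% of *Lamc1*, whose protein they bind, in the controls and at 86.7%, 45.3%, 102% and 53.9% in the libraries labelled Sox9. Control libraries differed among themselves by far more in this ratio than in that of α to β chains.

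Since a trimer needs all 3 chains, 11 possible trimers were described by the level of their lowest chain in each library. This is a description of mRNA, not of assembled protein. For laminins α1β1γ1, α2β1γ1, α4β1γ1 and α5β1γ1 the α chain was the lowest in all 7 libraries, and neither *Lamb1* nor *Lamc1* was the lowest in any of the trimers they enter. With the length of the longest coding transcript, *Lamc1* was the lowest in 1 of 32 cases in the libraries labelled Sox9. The level of laminin α4β1γ1 was therefore that of *Lama4*, at 0.269, 0.302 and 0.346 CPM per kb in the controls and 0.797, 0.728, 0.917 and 0.695 in the libraries labelled Sox9. It was the highest of all trimers in every library labelled Sox9, whereas in the controls laminin α2β1γ1 (replicate 1) or α1β1γ1 (replicates 2 and 4) was the highest. This order rests on the merged exon lengths. With the length of the longest coding transcript, α4β1γ1 was already the highest in control replicates 2 and 4, and by deposited FPKM α5β1γ1 lay above α4β1γ1 in replicates 1 and 4 labelled Sox9. Laminin α1β1γ1 was at 0.412 ± 0.0979 CPM per kb in the controls (SD, n = 3) and 0.505 ± 0.105 in the libraries labelled Sox9 (SD, n = 4). Laminin α2β1γ1 was at 0.248 ± 0.0858 and 0.464 ± 0.0627 CPM per kb, and laminin α5β1γ1 at 0.0936 ± 0.00506 and 0.295 ± 0.0881 CPM per kb (SD, same n).

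The trimers with the β2 chain differed among themselves. Laminins α5β2γ1 and α5β2γ3 were 2.13 and 2.06 times as high in the libraries labelled Sox9 as in the controls, without overlap. That separation rests on replicate 4 labelled Sox9, where both were at 0.103 CPM per kb, the level of *Lamb2* with 3 counts. The highest controls were at 0.0992 and 0.0923 CPM per kb. As single genes, 22.9% of all genes tested had every library labelled Sox9 above every control. The ratio for α4β2γ3 was 1.52, with overlap. For α2β2γ1 the ratio was 0.928 and for α1β2γ1 it was 0.637. In laminin α4β2γ1 the lowest chain was *Lama4* in the 3 controls and *Lamb2* in the 4 libraries labelled Sox9, so that its level was 0.306 ± 0.0383 CPM per kb in the controls (SD, n = 3) and 0.225 ± 0.0924 in the libraries labelled Sox9 (SD, n = 4). Over all trimers that hold it, *Lamb2* was the lowest chain in 4 of 18 cases in the controls. In the libraries labelled Sox9 it was the lowest in 19 of 24. These cases repeat the same *Lamb2* value of a library over several trimers, so they are not independent. Laminin α2β1γ3, with *Lamc3*, was at 0.188, 0.0856 and 0.10 CPM per kb in the controls and 0.474, 0.186, 0.496 and 0.449 in the libraries labelled Sox9, where replicate 2 stood apart. These statements depend on the length used. The FPKM values that the authors deposited follow the span of the gene with its introns, and since *Lamb2* is by far the shortest gene by span (10795 bases against 639723 for *Lama2*), it was the lowest chain in 1 case on that scale. By FPKM, the log2 ratio of laminin α4β2γ1 was 1.61 instead of -0.45.

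**Figure D3:**
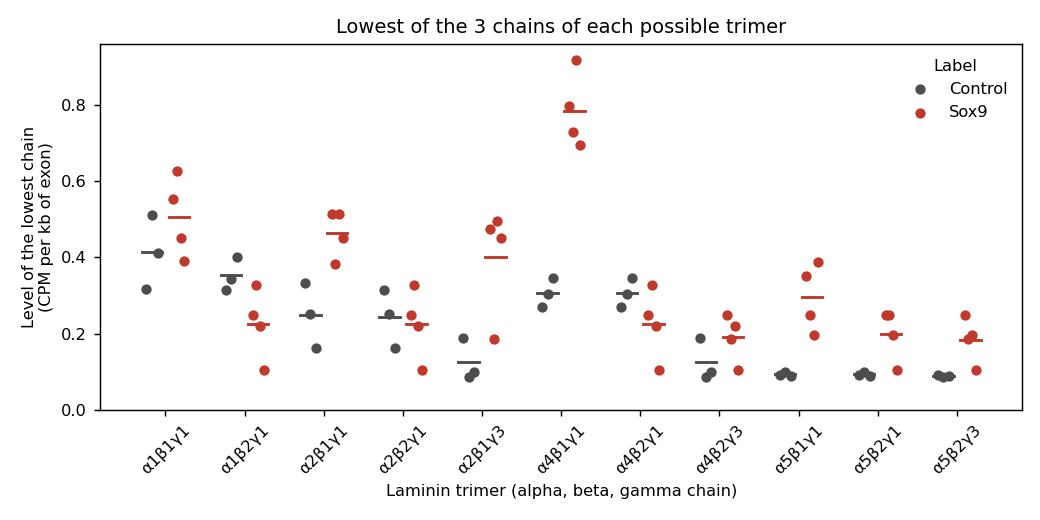
Level of the lowest of the 3 chains (CPM per kb of merged exon) for 11 possible laminin trimers, in the 3 control libraries (grey) and the 4 libraries labelled Sox9 (red), with lines at group means. The groups do not overlap for laminins α2β1γ1, α4β1γ1, α5β1γ1, α5β2γ1 and α5β2γ3. For α5β2γ1 and α5β2γ3 the lowest red point is replicate 4 labelled Sox9, set by 3 counts of *Lamb2*. Laminin α4β1γ1 has the highest level in each library labelled Sox9 (0.695 to 0.917).

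The deposited FPKM gave the same directions for the members as CPM but no call. *Nid1* was at 0.002, 0.011 and 0.006 FPKM in the controls and 0.098, 0.033, 0.074 and 0.060 in the libraries labelled Sox9 (log2 fold change 2.18 ± 0.44 on log2(FPKM + 0.01), SE, limma adjusted p = 0.0308). *Lama4* had an adjusted p of 0.0455 and *Lama5* of 0.0476, beside a background of 0.933% of 25405 genes called higher and 0.059% called lower by FPKM. *Lama2* fell under the filter of a mean FPKM of 0.01, with 0.006 ± 0.002 in the controls (SD, n = 3) and 0.0125 ± 0.00191 in the libraries labelled Sox9 (SD, n = 4).

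*Lama3* and *Lamb3*, for chains of the anchoring laminin of skin, were few in counts. *Lama3* was called higher (log2 fold change 2.09, adjusted p = 0.00667), but the call was kept in 2 of the 7 fits that left out 1 library (those without control replicate 4 and without replicate 2 labelled Sox9, with adjusted p up to 0.0282 in the others) and was lost after cyclic loess (1.24, adjusted p = 0.084). Without control replicate 4 the log2 fold change of *Lama3* was 2.83. *Lamb3* had a log2 fold change of 1.91 (adjusted p = 0.0509), and 3.04 without control replicate 2 (adjusted p = 0.0299).

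Laminins act through receptors, and 9 receptor genes were examined, of which 3 were called higher and none lower (median log2 fold change 1.41), beside 11.3% of all genes and 20.6% to 22.8% of genes with an average log2 CPM under 3. *Itga7*, for the laminin-binding integrin α7 of muscle, was at 0.669, 0.174 and 0.102 CPM in the controls and 2.47, 3.5, 3.13 and 2.94 CPM in the libraries labelled Sox9 (log2 fold change 3.21 ± 0.57, SE, adjusted p = 0.00147). *Bcam*, for the Lutheran receptor of the laminin α5 chain, rose by a log2 fold change of 3.71 ± 0.75 (SE, adjusted p = 0.0031) from at most 5 counts in any control. *Itga2*, for a collagen and laminin integrin, had a log2 fold change of 2.05 ± 0.51 (SE, adjusted p = 0.00904), a call kept in 2 of the 7 fits that left out 1 library (those without control replicate 4 and without replicate 2 labelled Sox9, with adjusted p up to 0.0405 in the others). After cyclic loess none of the 3 passed, with log2 fold changes of 1.70 for *Itga7* (adjusted p = 0.0514), 1.76 for *Bcam* (0.0788) and 0.73 for *Itga2* (0.287), and *Bcam* narrowly failed without control replicate 4 (0.0102). Without control replicate 1 the log2 fold changes of *Itga7* and *Bcam* were 4.28 and 4.81, and that of *Bcam* was 3.11 without control replicate 2. The receptors with the most counts were not called: *Itgb1*, the shared β1 subunit, had a log2 fold change of -0.13 (95% interval -0.43 to 0.16), *Itga6*, the main laminin integrin of radial glia, 0.28 (-0.14 to 0.70), and *Dag1*, which encodes dystroglycan, -0.09 (-0.73 to 0.56).

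None of the 12 enzymes examined that build the laminin-binding glycan of dystroglycan was called (median log2 fold change -0.0993). *Pomk*, for the kinase that primes this glycan for extension, had a log2 fold change of -0.30 ± 0.15 (SE; 95% interval -0.62 to 0.02, adjusted p = 0.133).

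Among 15 other basement membrane components, 5 of the 14 with enough counts to be tested were called higher and none lower (median log2 fold change 1.16), beside the same shares of all genes and of low-level genes. *Npnt*, for nephronectin, an integrin ligand, was at 1.63, 1.04 and 2.54 CPM in the controls and 9.89, 7.75, 10.8 and 6.71 CPM in the libraries labelled Sox9 (log2 fold change 2.35 ± 0.36, SE, adjusted p = 0.000586). *Col4a1*, for the collagen IV chain to which nidogens tie laminins, rose by 1.69 ± 0.28 (SE, adjusted p = 0.000918). *Hspg2*, for perlecan, another nidogen ligand, rose by 2.00 ± 0.36 (SE, adjusted p = 0.0016), though not after cyclic loess (1.47, adjusted p = 0.0111). All 3 were without overlap between groups. The partners with the most counts were not called: *Agrn*, for the laminin-binding proteoglycan agrin, had a log2 fold change of -0.11 (95% interval -0.41 to 0.19), and *Sparc*, for a collagen-binding glycoprotein, -0.85 ± 0.30 (SE; adjusted p = 0.0435), at 22.6 CPM in the controls and 12.4 CPM in the libraries labelled Sox9. Both were named after their values were seen.

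Netrins carry laminin-like domains at their end, and 3 of the 5 matched in the count table had enough counts to be tested. *Ntn1*, a guidance cue, was called higher (log2 fold change 2.56 ± 0.43, SE, adjusted p = 0.00108), while *Ntng2* (0.87, adjusted p = 0.0283) and *Ntn4* (0.25, adjusted p = 0.703), the netrin that binds laminin γ chains, were not.

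Summed markers of several other cell types also differed between the groups. In brain, laminins with α4 and α5, nidogens, collagen IV and perlecan are also made by vessel cells. The 10 endothelial markers summed to 6.21, 15.7 and 8.14 CPM in the controls and 31.0, 29.6, 55.0 and 20.3 CPM in the libraries labelled Sox9 (two-sided p = 0.0571 by an exact permutation test over 35 splits, where the smallest possible is 0.0286). All 8 tested had a log2 fold change above 0 (median 1.62), and 2 were called higher, *Flt1* and *Kdr*, which encode VEGF receptors (adjusted p = 0.00145 and 0.00220), beside 20.6% to 22.8% of all genes with an average log2 CPM under 3, whose medians were 1.55 and 0.62. None of the 10 was at 0 in every library. *Cldn5*, a defining tight junction gene with too few counts to be tested, had 1, 7 and 1 counts in the controls and 0, 0, 15 and 0 in the libraries labelled Sox9. These 3 genes were named after their values were seen. Library by library, control replicate 2 was highest of the controls and replicate 3 was highest of the libraries labelled Sox9 in both *Nid2* and the endothelial sum. *Nid1* was also highest in replicate 2 among the controls, and in replicate 1 among the libraries labelled Sox9. Under the Sox9 label *Lama4* was highest in replicate 3 and lowest in replicate 4, as the endothelial sum was, while *Lama5* was highest in replicate 4 and lowest in replicate 3. Among the controls *Lama4* was highest in replicate 4 and *Lama5* in replicate 2. The part of vessel cells in the differences of *Nid1*, *Nid2*, *Lama4* and *Lama5* was not tested.

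**Figure D4:**
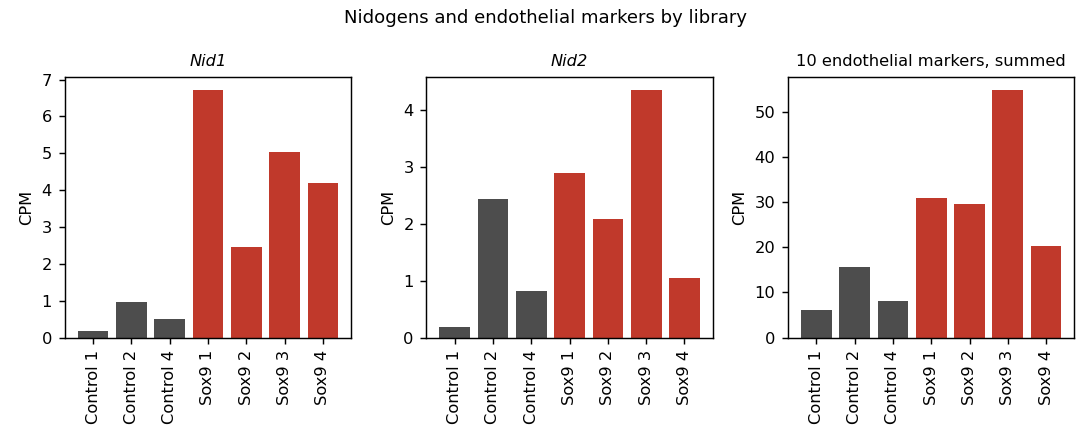
CPM of *Nid1*, of *Nid2* and of 10 endothelial markers summed, with 1 bar per library (controls grey, labelled Sox9 red; each vertical axis starts at 0 and has its own scale). Control replicate 2 and replicate 3 labelled Sox9 are the highest of their groups in the middle and right panels, and replicate 1 labelled Sox9 (6.73 CPM) is the highest in the left panel.

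The 10 mural and meningeal markers lay at 10.4 to 12.4 CPM in the controls and 17.9 to 33.2 CPM in the libraries labelled Sox9 (1 of 8 tested called higher), the 6 choroid plexus markers at 1.15 to 1.74 and 9.92 to 15.5 CPM (3 of 4), and the 7 oligodendrocyte precursor markers at 20.8 to 46.6 and 76.9 to 195 CPM (5 of 6), beside 11.3% of all genes and 20.6% to 22.8% of those with an average log2 CPM under 3. Most of the oligodendrocyte precursor sum was *Vcan*, named after its values were seen. *Vcan* was at 45.7, 31.9 and 19.9 CPM in the controls and 167, 94.4, 67.2 and 85.6 CPM under the Sox9 label. Microglial (11.4 to 39.0 and 21.2 to 69.5 CPM) and erythroid markers (2.29 to 24.9 and 15.8 to 95 CPM) overlapped between groups in their sums. Of those tested, 1 of 8 microglial and 1 of 6 erythroid markers were called higher. Radial glia, which anchor to the pial basement membrane, had markers at 810 to 1369 CPM in the controls and 472 to 592 CPM in the libraries labelled Sox9 (5 of 10 called lower), and astrocyte markers lay at 256 to 467 and 128 to 148 CPM (2 of 8 called higher and 3 lower). Intermediate progenitor markers lay at 729 to 815 and 509 to 640 CPM (2 of 8 lower), and neuron markers at 13400 to 16380 and 11940 to 14080 CPM with none of 10 called. Over all genes, 3.43% were called lower. No list had a marker at 0 in every library, and the part of these lists in the members' differences was not tested.

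The 5 tested genes with the highest Pearson correlation with *Lamb1*, the most abundant chain, in log2 CPM over the 7 libraries were *Rnf10* (r = 0.987), *Slain2* (0.984), *Prr3* (0.977), *Ppp2r1b* (0.976) and *Supt5* (0.973). They were picked as the highest of 16522 genes and share the libraries and their depth with *Lamb1*, so the coefficients are a description. None of the 5 was called between the groups, with log2 fold changes from -0.31 to -0.19.

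**Figure D5:**
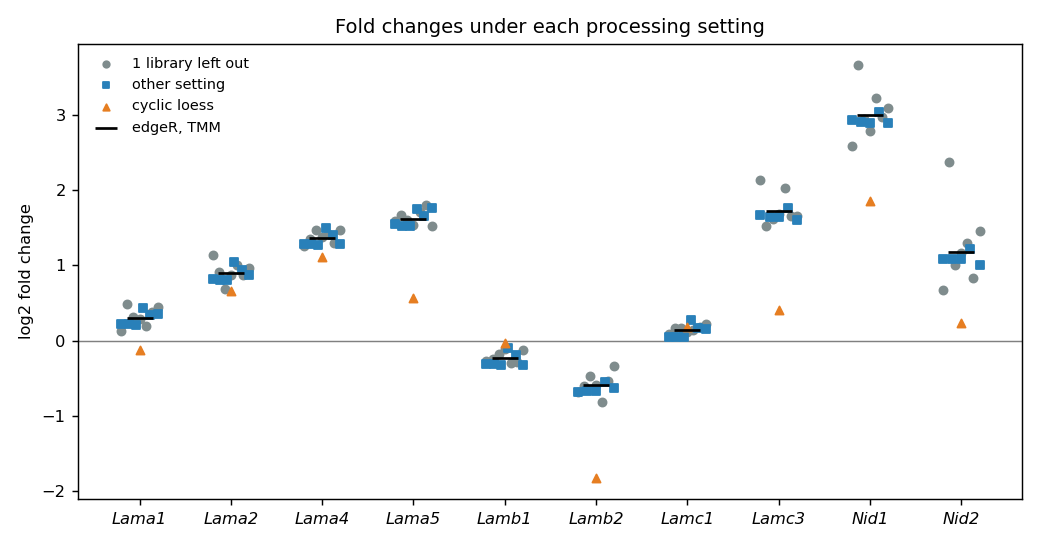
Log2 fold change of each member by edgeR with TMM (black line), after leaving out 1 library at a time (grey circles), under other settings (blue squares) and after cyclic loess with limma-trend (orange triangles). The cyclic loess value is the lowest shown for each member except *Lamb1* and *Lamc1*, and it lies below 0 for *Lama1*.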

How the data were processed

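The authors sequenced mRNA of sorted High RFP cells in 7 libraries, 3 control and 4 labelled Sox9, grouped by sample title. cDNA was primed with poly-dT and amplified by PCR without molecular identifiers. The authors trimmed reads with cutadapt and aligned them to mm10 with STAR (2.5.2b in the submitters' processing notes), and the counting program and its use of strand or introns are not given in the sources used here. The files deposited by the authors hold unnormalized read counts for each Ensembl gene, and FPKM values. For 91.8% of 6894 genes, the length linking the deposited counts and FPKM was within 2% of the gene span.

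Counts were filtered (filterByExpr), scaled by TMM and tested with edgeR 4.0.16 (quasi-likelihood, two-sided, no covariate) in R 4.3.3, and p-values were adjusted over all 16522 genes tested by the Benjamini-Hochberg method, with a threshold of 0.01. FPKM were tested as log2(FPKM + 0.01) with limma 3.58.1. Standard errors (SE) were taken as the absolute log2 fold change over the square root of F. Gene symbols and positions were those of GENCODE M21 (GRCm38), matched for 36345 of 38124 genes. The fits were tested on simulated counts.

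All 10 members were named, together with *Sox9*, chains of the skin laminin, the 3 smallest p-values of each companion list, marker sums, and the 5 genes most like *Lamb1*. Some genes that this rule covers are not reported here. The members and lists were chosen with earlier results of these data known. Alternatives were DESeq2 1.42.0, its size factors in edgeR, cyclic loess with limma-trend, other filters, an adjusted p of 0.05, a replicate block, and leaving out each library. Summaries used Python 3.11.15, numpy 2.4.6, pandas 2.3.3, scipy 1.17.1 and matplotlib 3.10.9.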

Additional observations from a re-analysis of the deposited data

Results flagged for a closer look

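Of 57 checks for a library far from the others of its group, 3 were positive, where chance gives about 1 in 20. For laminin α2β1γ3, replicate 2 labelled Sox9 was far below the rest of its group at 0.186 CPM per kb, 0.85 of the group's range from its nearest neighbour. The summed mural and meningeal markers were also lowest in replicate 2 labelled Sox9, at 17.9 CPM (0.896 of the range). The summed microglial markers were highest in replicate 1 labelled Sox9, at 69.5 CPM (0.839 of the range).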

How the results depend on the processing

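The 2 members called higher were 0 after cyclic loess, 0 with the replicate block and 5 at an adjusted p under 0.05, and between 1 and 3 when 1 library was left out (1 without control replicate 2, where *Lama4* was lost). The members called lower were 0 under each setting and with each library left out, and 0 members were called by FPKM in any fit. The 10 companion genes called higher were 3 after cyclic loess, 4 with at least 10 counts in every library, 1 with the block and 16 at 0.05, and 6 to 10 when 1 library was left out (6 without replicate 3 labelled Sox9). The 0 companion genes called lower were 1 by DESeq2, 1 with its size factors, 2 without a filter and 2 at 0.05. The 15 marker genes called higher were 2 after cyclic loess, 25 without a filter, 3 with at least 10 counts, 5 with the block, 31 at 0.05, and 7 to 18 when 1 library was left out (7 without control replicate 1, 9 without control replicate 4). The 10 called lower were 6 after cyclic loess, 19 without a filter and 7 to 11 when 1 library was left out. With cyclic loess the sign turned for *Lama1* (-0.129), *Lamb3* (-0.0228) and *Ntn4* (-0.895), and the cause was not tested. From deposited FPKM the log2 ratios of trimer levels became 0.517 for laminin α1β2γ1, 1.06 for α2β2γ1, 1.61 for α4β1γ1, 1.61 for α4β2γ1, 2.02 for α4β2γ3, 1.74 for α5β2γ1 and 1.96 for α5β2γ3, a scale that differs in both the length used and the scaling of the libraries. Over the members, 127 other results kept their side of the threshold, 5 lost it, 3 gained it and 1 turned. The replicate numbers did not pair the libraries (correlations of same-numbered libraries of -0.0262, 0.112 and 0.00257, and not every library correlated best with its own number). With the block, adjusted p was 0.0208 for *Nid1* and 0.0197 for *Lama4*. Numbers are those of the titles. The descriptions number control replicate 4 as 3, and its correlation with replicate 3 labelled Sox9 was 0.015. The 95% intervals ran from -1.52 to 0.34 for *Lamb2* and from -0.18 to 2.54 for *Nid2*, both with few counts. How far few counts and the spread between libraries set these widths was not tested.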
